A study of Mus musculus with 6 samples.

Results

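The genes described here are 10 genes of MHC class I antigen presentation, H2-K1, H2-D1, H2-Q6, H2-Q7, B2m, Tap1, Tap2, Tapbp, Psmb8 and Psmb9. They were picked by name among the 31253 genes of the count tables, and all 10 were present in each of the 6 libraries. The libraries came from dissociated mouse livers, 1 library per mouse, counted as unique molecular identifiers (UMIs, 1 per captured mRNA molecule) at the 3′ end of transcripts. The knockout group was 3 Stingfl/fl Cdh5-Cre+ mice, in which floxed Sting alleles are targeted by a Cre recombinase under the promoter of Cdh5, the gene of VE-cadherin. The control group was 3 littermates, Stingfl/fl Cdh5-Cre-, with the same floxed alleles and no Cre. All 6 mice ate chow until 8 weeks of age and were then given a western diet with CCl4 (carbon tetrachloride) for 12 weeks to produce metabolic dysfunction-associated steatohepatitis (MASH). The Cdh5 promoter is active in endothelium, including the embryonic endothelium from which blood cells arise, so recombination in blood cells of the liver was possible and was not tested. The labels call the cells liver sinusoidal endothelial cells, but the libraries hold many cell types, with T-like cells the largest class.

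Class I molecules display peptides from inside a cell to CD8 T cells and to receptors of NK cells. Peptides are cut by the proteasome, in which Psmb8 and Psmb9 replace the catalytic subunits Psmb5 and Psmb6 to form the immunoproteasome, and are carried into the endoplasmic reticulum by the transporter of Tap1 and Tap2. Tapasin (Tapbp) holds an empty heavy chain at that transporter until a peptide binds, and the heavy chain reaches the surface only with β2-microglobulin (B2m). H2-K1 and H2-D1 encode the classical heavy chains, and H2-Q6 and H2-Q7 encode nonclassical Qa-2 family chains. Interferons, NF-kB and the transactivator NLRC5 raise these genes, and STING, the adaptor of cytosolic DNA sensing, signals through interferon and NF-kB. In liver, sinusoidal endothelium is known for showing antigen to CD8 T cells.

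After filtering and removal of 938 likely doublets, 41744 of 44656 barcodes were kept, between 4771 and 8856 per library and from 52993904 to 70848864 UMIs. Cells were clustered with the class I genes left out of the variable genes, and clusters took names from fixed marker lists, which gave 12 classes; 3840 cells stayed unnamed. Genotypes were compared in the 10 classes that had 20 cells or more from each mouse: T-like (13877 cells), B-like (8320), NK/ILC1-like (3330), mesothelial-like (2946), endothelial-like (2634), cholangiocyte-like (2283), stellate/fibroblast-like (1245), neutrophil-like (1061), cDC1-like (946, type 1 conventional dendritic) and plasma-like (789). The stellate/fibroblast-like class held 2 unlike clusters, 710 cells led by Acta2, Myh11, Tagln and Des, genes of smooth muscle and of contractile stellate cells, and 535 led by Gsn, Dpt, Lum and Col1a1, genes of fibroblasts. The cluster led by smooth muscle genes had 12, 76 and 75 cells in knockout livers, against 117, 398 and 32 in control livers, so levels of the class also carry its share. Mature dendritic-like (295) and plasmacytoid dendritic-like (178) cells were described only, and no cluster took a macrophage, Kupffer or hepatocyte name. Any 2 libraries had from 0.0974% to 0.328% of their barcodes in common. A cluster of cells with Gzmk and Cd8b1 among its leading genes had 753 of its 1048 cells in control 1, and it is unnamed and outside the T-like class. Its best marker score was that for T cells (0.957, next 0.234), with 8 T markers detected. It took no name because its 10 leading genes held 1 marker of another class and 0 T markers. Values are UMIs summed per library within a class and given as CPM, scaled to a common library total, so the mouse is the unit of every test.

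The targeted gene, Sting1, had 21.6, 14.6 and 22.1 CPM in knockout livers, against 27.97, 26.7 and 27.8 CPM in control livers among endothelial-like cells. The groups did not overlap there, but edgeR's quasi-likelihood test did not call the difference (log2 fold change -0.48, SE 0.176, adjusted p = 0.734 over 12212 genes). Over all cells Sting1 had 13.1, 12.7 and 13.9 CPM in knockout livers, against 12.5, 14.2 and 15.2 CPM in control livers, with overlapping groups. Which exons are floxed is not given in the sources used here, so reads from the 3′ end may lie outside the deleted part.

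H2-K1, H2-D1, H2-Q6, H2-Q7, Tap1, Tap2, Tapbp, Psmb8 and Psmb9 lie in the MHC on chromosome 17, and B2m lies on chromosome 2. On GRCm38 with GENCODE M21 the genes Psmb9 (17:34181987-34187764, minus strand), Tap1 (17:34187553-34197225, plus), Psmb8 (17:34197721-34201454, plus) and Tap2 (17:34203527-34216321, plus) follow one another, and Psmb9 and Tap1 start head to head with overlapping ends. Tapbp (17:33915899-33929292, plus) and H2-K1 (17:33996017-34000347, minus) lie before them, and H2-D1 (17:35262730-35267499, plus), H2-Q6 (17:35424850-35430055, plus) and H2-Q7 (17:35439155-35443773, plus) after them, while B2m is at 2:122147686-122153083 on the plus strand. Reads shared by near-identical heavy chains can be left out of the counts or split between genes. Of the 90-base windows in the last 500 bases of H2-Q6 coding transcripts, 21.4% also occurred in H2-Q7, while 0% of those of H2-Q7 occurred in another of the class I genes compared, and 0.2% of those of H2-K1 did. Values of H2-Q6 are thus uncertain. These are shares of windows with identical letters and not of reads, so the size of that uncertainty was not measured.

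The promoters are shown for the 4 heavy chains and B2m because they held a match to a motif marked below. RefSeq promoters (GRCm38.p6) were found for 9 of the 10 genes, and the 250 bases before the RefSeq start site were searched on both strands. That start can differ from the end of the GENCODE gene given above. The stretches searched for H2-D1, Tapbp, Psmb8 and Psmb9 lie inside those GENCODE genes. The NF-kB motif GGGATTCCC stood in 4 of the 9 promoters, those of the 4 heavy chains, and in 0.31% of 27025 promoters of the same length. The interferon regulatory factor motif AANNGAAA, a form settled on after these promoters had been read, was in 5 of the 9, the same 4 and B2m, and in 21.57% of all promoters. The STAT motif TTCNNNGAA was in Psmb8 alone, against 7.18% of all, and the CCAAT box was in 8 of 9, against 34.46% of all. Within a promoter none of these matches overlapped another. The CCAAT boxes of Tap1 and Psmb9, whose promoters overlap, are the same bases read on opposite strands, so that site is counted for both genes. The 4 heavy chain genes are related copies and share much of this stretch, so they are not independent cases. A match is only a match of letters, and for NF-kB only the exact letters given above were searched. Other forms of the NF-kB site were not searched for. A promoter without a match, that of B2m included, is thus not shown to lack such a site. The stretches of 120 bases are H2-K1 chr17:34000385-34000504 (minus), H2-D1 chr17:35262877-35262996 (plus), H2-Q6 chr17:35424631-35424750 (plus), H2-Q7 chr17:35438976-35439095 (plus) and B2m chr2:122147493-122147612 (plus), written 5′ to 3′ on the gene's strand, with capitals for the NF-kB motif and the interferon regulatory factor motif (which reads on the other strand in the heavy chains).
H2-K1: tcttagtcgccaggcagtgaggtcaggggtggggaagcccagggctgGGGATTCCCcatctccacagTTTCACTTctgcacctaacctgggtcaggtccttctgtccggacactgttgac
H2-D1: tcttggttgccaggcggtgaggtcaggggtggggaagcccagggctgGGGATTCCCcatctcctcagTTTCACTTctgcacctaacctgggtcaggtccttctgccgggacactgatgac
H2-Q6: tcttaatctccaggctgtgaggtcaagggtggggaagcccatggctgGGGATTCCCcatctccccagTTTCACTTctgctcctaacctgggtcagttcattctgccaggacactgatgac
H2-Q7: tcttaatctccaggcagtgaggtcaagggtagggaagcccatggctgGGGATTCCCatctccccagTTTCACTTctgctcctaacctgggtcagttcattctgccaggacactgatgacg
B2m: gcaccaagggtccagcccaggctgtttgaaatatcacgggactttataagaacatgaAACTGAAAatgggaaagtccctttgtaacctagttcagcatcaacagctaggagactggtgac
In all 4 heavy chains the NF-kB motif comes first and the interferon regulatory factor motif follows shortly after it.

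All 10 genes were detected in every class and every library, but they did not all order the classes alike. Heavy chains and B2m were highest in lymphocytes and mature dendritic-like cells, while Tap1, Tap2, Psmb8 and Psmb9 were highest in dendritic classes. The classes are clusters of the same cells, so these levels are a description with no test, and the share of free RNA in low levels was not tested.

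The classical heavy chain gene H2-K1 had 2584, 2468 and 2565 CPM in knockout livers, against 2699, 2578 and 2683 CPM in control livers among NK/ILC1-like cells, the class with its highest mean. Across the other classes its mean ± SD over the 6 libraries was, in CPM, 2497 ± 257 in mature dendritic-like, 1985 ± 51.8 in T-like, 1694 ± 152.98 in mesothelial-like, 1571 ± 187 in cholangiocyte-like and 1384 ± 115.2 in endothelial-like cells. It was then 1134 ± 103 in plasma-like, 1009 ± 32.5 in B-like, 974 ± 61.3 in plasmacytoid dendritic-like, 925 ± 70.3 in cDC1-like and 622 ± 170.5 in neutrophil-like cells. B-like, plasmacytoid dendritic-like and cDC1-like cells lay close together. The lowest mean was that of stellate/fibroblast-like cells, at 726, 457 and 427 CPM in knockout livers, against 432, 623 and 755 CPM in control livers. The step down held in all 6 libraries at 4 of 11 neighbouring pairs: mature dendritic-like over T-like, T-like over mesothelial-like, endothelial-like over plasma-like and cDC1-like over neutrophil-like. Among tested classes NK/ILC1-like cells had 4.56 times the level of stellate/fibroblast-like cells, and from 3.55 to 6.25 times within single libraries.

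The second classical heavy chain gene, H2-D1, had 2031, 2121 and 2241 CPM in knockout livers, against 2064, 1760.1 and 2336 CPM in control livers among mature dendritic-like cells, the class with its highest mean. In the next classes the mean ± SD over the 6 libraries was, in CPM, 1713 ± 203 in NK/ILC1-like, 1346 ± 152 in T-like, 1117 ± 84.4 in endothelial-like, 1055 ± 118 in mesothelial-like and 945 ± 169 in neutrophil-like cells. Lower still, it was 934 ± 104 in B-like, 914 ± 80.6 in cDC1-like, 901 ± 163.5 in cholangiocyte-like, 869.8 ± 148 in plasmacytoid dendritic-like and 821 ± 50.5 in plasma-like cells. From neutrophil-like to plasma-like cells the means lay close together. At the bottom, stellate/fibroblast-like cells had 691, 349 and 401 CPM in knockout livers, against 318, 451 and 907 CPM in control livers. Only the top 3 steps (mature dendritic-like, NK/ILC1-like, T-like, endothelial-like) held in all 6 libraries, so the order from endothelial-like cells down to plasma-like cells was not settled by these mice.

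The Qa-2 family gene H2-Q6 had 609, 684 and 639 CPM in knockout livers, against 757, 730.1 and 739 CPM in control livers among NK/ILC1-like cells, the class with its highest mean. Below that, the mean ± SD over the 6 libraries was, in CPM, 531 ± 28.3 in T-like, 368 ± 45.7 in B-like, 347 ± 66.7 in mature dendritic-like, 177 ± 23.1 in endothelial-like and 174 ± 26.5 in plasma-like cells. The following classes had 174 ± 26.0 in cholangiocyte-like, 123 ± 26.5 in mesothelial-like, 117 ± 25.0 in cDC1-like, 62.9 ± 29.2 in plasmacytoid dendritic-like and 43.9 ± 23.9 in stellate/fibroblast-like cells. Endothelial-like, plasma-like and cholangiocyte-like cells had nearly the same mean. The least was found in neutrophil-like cells, at 20.01, 61.0 and 23.2 CPM in knockout livers, against 21.7, 65.1 and 62.0 CPM in control livers. The NK/ILC1-like level was 16.4 times that of neutrophil-like cells (11.2 to 34.9 within single libraries). Its neighbour H2-Q7 had 703, 488 and 699.9 CPM in knockout livers, against 648, 586 and 727 CPM in control livers among NK/ILC1-like cells, the class with its highest mean. Across the other classes its mean ± SD over the 6 libraries was, in CPM, 565 ± 78.9 in T-like, 403 ± 23.9 in mature dendritic-like, 255 ± 29.3 in plasma-like, 188 ± 28.1 in endothelial-like and 186 ± 28.2 in B-like cells. It was then 147 ± 68.9 in plasmacytoid dendritic-like, 139 ± 30.2 in cholangiocyte-like, 111 ± 13.4 in mesothelial-like, 94.4 ± 20.2 in cDC1-like and 43.8 ± 19.9 in stellate/fibroblast-like cells. Endothelial-like and B-like cells had nearly the same mean here. The lowest mean was that of neutrophil-like cells, at 20.4, 36.8 and 51.3 CPM in knockout livers, against 25.0, 68.0 and 39.2 CPM in control livers. The corresponding fold was 15.99 (8.61 to 34.4). For both genes NK/ILC1-like cells exceeded T-like cells in all 6 libraries, and the classical heavy chains spanned a narrower range, with H2-D1 at a fold of 3.30.

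The light chain gene B2m had 3380.3, 3538 and 3541 CPM in knockout livers, against 3527, 3305 and 3955 CPM in control livers among mature dendritic-like cells, the class with its highest mean. In the next classes the mean ± SD over the 6 libraries was, in CPM, 2284 ± 189.5 in NK/ILC1-like, 1967 ± 124 in plasma-like, 1832 ± 113 in T-like, 1572 ± 144 in endothelial-like and 1509 ± 91.1 in mesothelial-like cells. Lower still, it was 1291 ± 125 in plasmacytoid dendritic-like, 1180.0 ± 70.8 in B-like, 1133 ± 98.5 in cDC1-like, 758 ± 131 in neutrophil-like and 749 ± 78.5 in cholangiocyte-like cells. Neutrophil-like and cholangiocyte-like cells had nearly the same mean. At the bottom, stellate/fibroblast-like cells had 995, 447 and 538 CPM in knockout livers, against 455, 573 and 1242 CPM in control livers. Its fold between tested extremes was 3.22. Stellate/fibroblast-like values were wide, and control 3 was the high library there for H2-K1, H2-D1 and B2m. Plasma-like cells stood in place 3 of 12 for B2m but in place 11 for H2-D1.

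The low place of stellate/fibroblast-like cells rested partly on their cluster led by smooth muscle genes. Over 6 libraries H2-K1 was 439 ± 138 CPM in that cluster and 695 ± 106 CPM in the cluster led by fibroblast genes, and B2m was 383 ± 120.4 CPM and 1040.2 ± 258 CPM. Tap1 was 19.0 ± 10.8 CPM and 25.2 ± 5.77 CPM, and Psmb8 was 23.6 ± 11.7 CPM and 47.2 ± 12.4 CPM. The fibroblast-led cluster alone would still have the lowest mean of the classes for H2-D1, Tap2, Psmb8 and Psmb9, but not for H2-K1, B2m or Tap1. B2m in NK/ILC1-like cells was 2.20 times the level of the fibroblast-led cluster, against 3.22 times that of the whole class.

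**Figure D1:**
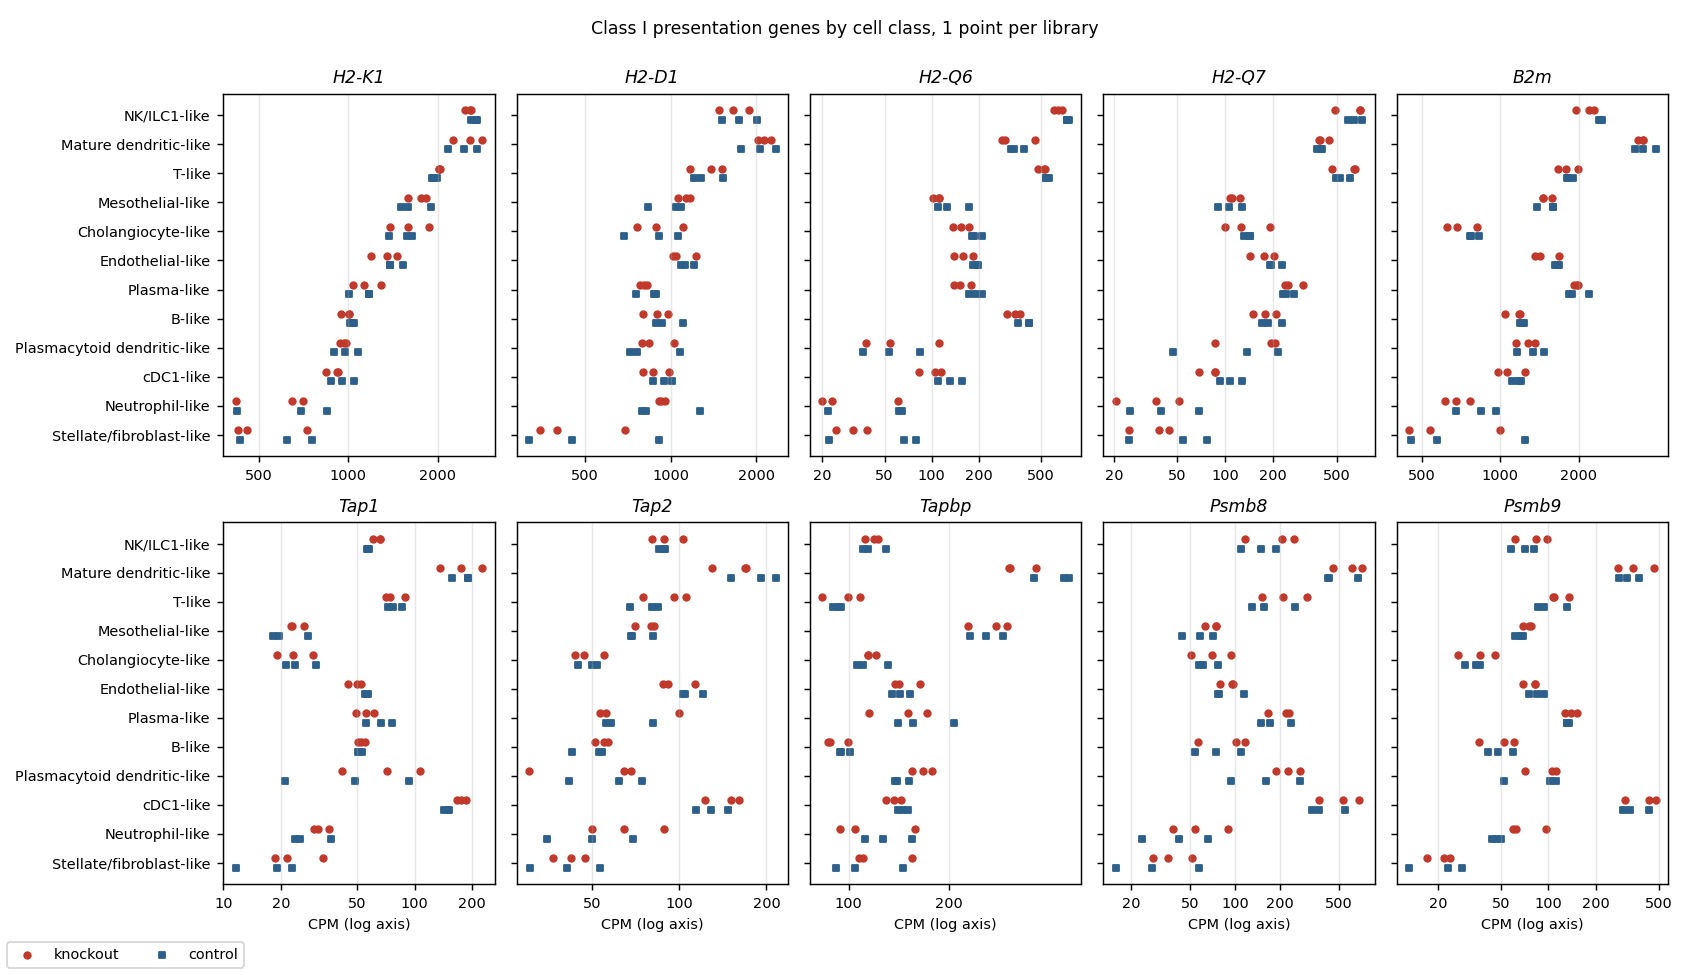
Level of each gene (CPM, log axis) in the 12 named classes, 1 point per library, with knockout libraries as circles above control libraries as squares. Classes run down in the order of H2-K1. NK/ILC1-like cells stand at the top for H2-Q6 and H2-Q7 (693 and 642 CPM on average), and mature dendritic-like and cDC1-like cells for Tap1, Psmb8 and Psmb9.

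The transporter subunit gene Tap1 had 226, 174 and 135 CPM in knockout livers, against 157, 190.2 and 189.6 CPM in control livers among mature dendritic-like cells, the class with its highest mean. Below that, the mean ± SD over the 6 libraries was, in CPM, 162 ± 17.0 in cDC1-like, 78.2 ± 7.46 in T-like, 63.8 ± 32.5 in plasmacytoid dendritic-like, 60.9 ± 9.53 in plasma-like and 60.6 ± 4.24 in NK/ILC1-like cells. The following classes had 52.7 ± 4.55 in endothelial-like, 52.2 ± 1.66 in B-like, 30.3 ± 5.36 in neutrophil-like, 24.5 ± 4.45 in cholangiocyte-like and 22.9 ± 3.73 in mesothelial-like cells. Mature dendritic-like and cDC1-like cells stood well above the rest. The least was found in stellate/fibroblast-like cells, at 33.2, 18.6 and 21.4 CPM in knockout livers, against 11.6, 19.2 and 22.8 CPM in control livers. cDC1-like cells had 7.68 times the level of stellate/fibroblast-like cells (5.05 to 12.96 within libraries), and they exceeded T-like cells in all 6 libraries. Its partner Tap2 had 169, 171 and 130.1 CPM in knockout livers, against 151, 215 and 191 CPM in control livers among mature dendritic-like cells, the class with its highest mean. Across the other classes its mean ± SD over the 6 libraries was, in CPM, 137 ± 18.2 in cDC1-like, 104 ± 12.6 in endothelial-like, 89.3 ± 7.57 in NK/ILC1-like, 84.9 ± 13.8 in T-like and 75.0 ± 6.67 in mesothelial-like cells. It was then 67.4 ± 18.9 in plasma-like, 59.7 ± 18.6 in neutrophil-like, 56.9 ± 17.0 in plasmacytoid dendritic-like, 52.2 ± 5.03 in B-like and 48.9 ± 4.47 in cholangiocyte-like cells. Below endothelial-like cells the steps were small. The lowest mean was that of stellate/fibroblast-like cells, at 36.9, 47.4 and 42.3 CPM in knockout livers, against 30.5, 41.2 and 53.2 CPM in control livers. The fold between tested extremes was 3.28, and endothelial-like cells stood in place 3 of 12 for Tap2 but in place 7 for Tap1.

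The tapasin gene Tapbp had 302, 364 and 305 CPM in knockout livers, against 443, 457 and 358 CPM in control livers among mature dendritic-like cells, the class with its highest mean. In the next classes the mean ± SD over the 6 libraries was, in CPM, 263 ± 30.2 in mesothelial-like, 157 ± 31.1 in plasma-like, 155 ± 15.2 in plasmacytoid dendritic-like, 145 ± 10.7 in endothelial-like and 141 ± 7.40 in cDC1-like cells. Lower still, it was 125 ± 26.4 in neutrophil-like, 119 ± 25.2 in stellate/fibroblast-like, 118 ± 7.32 in NK/ILC1-like, 116 ± 8.88 in cholangiocyte-like and 94.8 ± 8.57 in T-like cells. From plasma-like to cholangiocyte-like cells the means went down by small steps. At the bottom, B-like cells had 88.2, 99.4 and 86.6 CPM in knockout livers, against 94.1, 101.3 and 94.8 CPM in control livers. Mesothelial-like cells exceeded plasma-like cells in all 6 libraries, and T-like cells, high for the heavy chains, were next to the lowest for Tapbp. The fold between mesothelial-like and B-like cells was 2.80.

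The immunoproteasome subunit gene Psmb8 had 715, 456 and 605 CPM in knockout livers, against 420.0, 427 and 670.1 CPM in control livers among mature dendritic-like cells, the class with its highest mean. Below that, the mean ± SD over the 6 libraries was, in CPM, 469 ± 136 in cDC1-like, 202 ± 69.3 in plasmacytoid dendritic-like, 201 ± 66.9 in T-like, 196 ± 37.6 in plasma-like and 169.8 ± 54.0 in NK/ILC1-like cells. The following classes had 89.8 ± 14.9 in endothelial-like, 85.6 ± 27.5 in B-like, 68.2 ± 15.5 in cholangiocyte-like, 64.2 ± 11.7 in mesothelial-like and 52.1 ± 23.4 in neutrophil-like cells. Mature dendritic-like and cDC1-like cells stood well above the rest. The least was found in stellate/fibroblast-like cells, at 51.6, 27.96 and 35.4 CPM in knockout livers, against 15.8, 27.6 and 56.8 CPM in control livers. The subunit gene Psmb9 had 478, 303 and 430.0 CPM in knockout livers, against 327, 295 and 432 CPM in control livers among cDC1-like cells, the class with its highest mean. Across the other classes its mean ± SD over the 6 libraries was, in CPM, 343 ± 71.4 in mature dendritic-like, 136 ± 9.09 in plasma-like, 109.996 ± 19.4 in T-like, 92.5 ± 24.9 in plasmacytoid dendritic-like and 81.1 ± 8.34 in endothelial-like cells. It was then 75.6 ± 15.0 in NK/ILC1-like, 69.9 ± 5.74 in mesothelial-like, 60.02 ± 19.3 in neutrophil-like, 49.8 ± 9.65 in B-like and 35.1 ± 6.64 in cholangiocyte-like cells. Again cDC1-like and mature dendritic-like cells stood well above the rest. The lowest mean was that of stellate/fibroblast-like cells, at 23.96, 17.1 and 21.96 CPM in knockout livers, against 13.2, 23.1 and 28.4 CPM in control livers. The folds of cDC1-like over stellate/fibroblast-like cells were 13.1 for Psmb8 and 17.7 for Psmb9. For Psmb8 the step from cDC1-like to plasmacytoid dendritic-like cells, next in order, held in all 6 libraries, and for Psmb9 so did the step from mature dendritic-like to plasma-like cells.

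The immunoproteasome genes were also read against the constitutive subunits they replace, as UMIs per UMI, which does not depend on the scaling of a library. Psmb8 per Psmb5 was 12.5, 8.34 and 10.1 in knockout livers, against 7.32, 7.93 and 11.6 in control livers among mature dendritic-like cells. It was 6.08, 4.596 and 5.07 in knockout livers, against 4.05, 4.098 and 4.95 in control livers among cDC1-like cells. It was 1.87, 1.94 and 2.17 in knockout livers, against 2.19, 1.73 and 2.63 in control livers among endothelial-like cells. The ratio was above 1 in each of these 3 classes. Among stellate/fibroblast-like cells it was 0.778, 0.450 and 0.478 in knockout livers, against 0.240, 0.457 and 0.889 in control livers. Psmb8 thus outnumbered Psmb5 in endothelial-like cells of all 6 mice, and was below it in stellate/fibroblast-like cells of all 6. Psmb9 per Psmb6 was 1.09, 1.04 and 1.10 in knockout livers, against 1.53, 1.28 and 1.16 in control livers in endothelial-like cells, so the groups did not overlap (exact two-sided permutation test p = 0.1, the smallest that 3 against 3 mice allow). The same test gave p = 0.6 for Psmb8 per Psmb5 and p = 0.6 for Psmb10 per Psmb7 (exact permutation), and over these 3 ratios the Benjamini-Hochberg adjusted values were 0.3, 0.6 and 0.6 in the same order, where no p can pass 0.05. Psmb10, the gene of the remaining immunoproteasome subunit, ordered the classes differently: per Psmb7 it was 1.499, 1.51 and 1.82 in knockout livers, against 1.34, 1.11 and 1.22 in control livers in mesothelial-like cells, the highest class, and 0.225, 0.150 and 0.258 in knockout livers, against 0.0811, 0.174 and 0.250 in control livers in neutrophil-like cells, the lowest. In NK/ILC1-like cells Psmb8 per Psmb5 was 4.45, 3.98 and 4.16 in knockout livers, against 3.12, 2.74 and 2.97 in control livers, which do not overlap. They also did not overlap, knockout higher, in T-like, plasmacytoid dendritic-like and plasma-like cells, in T-like and plasma-like cells by a margin smaller than the rounding of such values. Psmb9 per Psmb6 in mature dendritic-like cells and Psmb10 per Psmb7 in mesothelial-like cells were also higher in knockout without overlap. These classes were picked out after their values were seen, and no test was run on these ratios outside endothelial-like cells. How many ratios of other gene pairs were so placed was not computed.

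**Figure D2:**
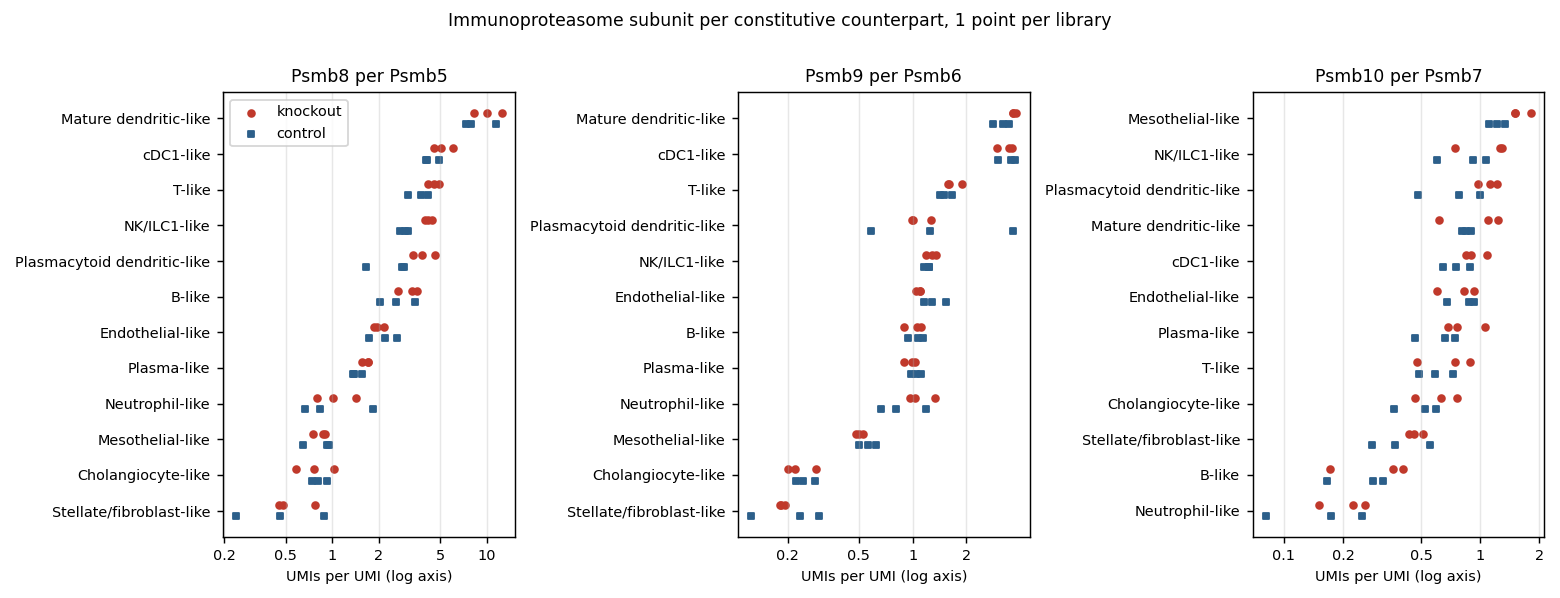
UMIs of an immunoproteasome subunit per UMI of its constitutive counterpart (log axes) by class, 1 point per library, with knockout libraries as circles above control libraries as squares. Mature dendritic-like cells lead for Psmb8 per Psmb5 (7.32 to 12.5), and mesothelial-like cells for Psmb10 per Psmb7 (1.11 to 1.82).

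Across the 12 classes the members most alike in log2 CPM were Tap1 and Psmb8 (Pearson r = 0.958), Psmb8 and Psmb9 (r = 0.930) and H2-Q6 and H2-Q7 (r = 0.919). Tapbp was the member least like the mean of the others (r = 0.361), and B2m was the most like it (r = 0.893). The 12 points share libraries and cells, so these correlations are a description with no p. With at least 16 CPM on average there were 7842 genes, those of the class I lists included. Outside these lists, the genes whose class pattern was among the most like the mean of the 10 members included Tmem128 (0.853), Peli1 (0.843), Zdhhc21 (0.839), Tmem120b (0.835), Hsf2 (0.832), Tor1aip2 (0.831), Etv3 (0.831), Dnajc15 (0.823) and Cblb (0.822), with r in brackets. Of these 9 genes, 8 had their highest level in mature dendritic-like cells and Zdhhc21 in T-like cells.

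The endothelial-like class was itself mixed. Lymphatic (327 cells), large-vessel (538) and sinusoidal (206) endothelial-like subclusters could be named from their markers, and 1563 cells could not. Tap1 over libraries with at least 10 cells was 32.8 ± 15.4 CPM in lymphatic (n = 6 libraries), 57.0 ± 5.47 CPM in large-vessel (n = 6) and 67.3 ± 16.1 CPM in sinusoidal endothelial-like cells (n = 4). Psmb8 was 78.0 ± 18.6, 90.5 ± 13.6 and 41.1 ± 11.1 CPM in the same order, and H2-D1 was 1262 ± 235, 1159 ± 166 and 829.8 ± 166 CPM. Sinusoidal endothelial-like cells numbered 84, 18 and 18 in knockout livers, against 5, 2 and 79 in control livers, so genotypes were not compared within them. In lymphatic endothelial-like cells H2-Q6 was 131, 189 and 143 CPM in knockout livers, against 278, 197 and 269.8 CPM in control livers, and H2-K1 was 1261, 1245 and 1190.2 CPM in knockout livers, against 2097, 1428 and 1693 CPM in control livers. Every knockout liver was below every control liver for both, and also for H2-Q7, Tap1 and Tap2, 5 of 10 members where 6.57% of 6469 genes were so placed, and none was above, where 11.0% were. These sums held 28 to 150 cells a library and were not TMM-scaled, and no test was run on them. In large-vessel endothelial-like cells 1 of 10 members, Psmb9, was lower in every knockout liver, at 80.4, 68.3 and 79.0 CPM in knockout livers, against 131, 92.4 and 84.4 CPM in control livers, where 3.18% of 8240 genes were so placed, and none was higher, where 9.2% were. The groups of the other 9 overlapped there, with H2-Q6 at 163.4, 186 and 170.4 CPM in knockout livers, against 143, 197 and 149.6 CPM in control livers. The large-vessel sums held 76, 71 and 137 cells in knockout livers, against 12, 113 and 129 in control livers. Control 1, with 12 cells, had the highest Psmb9 and the lowest H2-Q6. These sums were not TMM-scaled either, and no test was run on them.

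Between genotypes, all 10 genes had lower estimates in knockout than in control endothelial-like cells, and none passed the test. The median log2 fold change of the 10 was -0.19, from -0.32 to -0.011, beside 0.0089 over all 12212 genes tested, of which 48.5% were below 0. edgeR's quasi-likelihood test called 0 of the 10 (0.0% of all genes were called), 1 of the 10 had an unadjusted p under 0.05 (6.67% of all genes), and DESeq2 called 0 of the 10 (0.131% of all genes). The groups did not overlap for 3 of the 10, all lower in knockout, where 6.17% of all genes were so placed, and 0 were higher without overlap, against 6.63% of all genes. With scaling by library size alone 8 of 10 were lower, and Tapbp (0.037) and Psmb8 (0.0086) were just above 0. With 1 library left out 9 of 10 were lower in 5 of the 6 fits, with Tapbp above 0 without knockout 1, knockout 3 or control 2 and Psmb8 above 0 without knockout 2 or control 3, and 10 of 10 without control 1. Tapbp was also above 0 with no filter on low counts and with doublets kept, so the sign of these 2 members was not settled. On CPM without TMM scaling 2 of the 10, H2-Q6 and Tap1, were lower without overlap (4.27% of all genes), and B2m was not, with knockout 1 at 1678 CPM above all 3 control livers (1677, 1672 and 1624 CPM).

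The smallest p was that of H2-Q6, at 156, 178 and 140.5 CPM in knockout livers, against 203, 198 and 189 CPM in control livers (TMM-scaled). Every knockout liver was below every control liver (158 ± 18.9 CPM in knockout and 197 ± 7.02 CPM in control livers, SD, n = 3 each; log2 fold change -0.32, SE 0.119; unadjusted p = 0.0269, adjusted p = 0.734 by edgeR). B2m was placed likewise, with 1645, 1383 and 1371 CPM in knockout livers, against 1718, 1686 and 1673 CPM in control livers (log2 fold change -0.21, SE 0.126; adjusted p = 0.762 by edgeR). Knockout 1 lay close to the controls. H2-K1 had 1429.9, 1315 and 1201 CPM in knockout livers, against 1571, 1395 and 1427 CPM in control livers (log2 fold change -0.15, SE 0.126), and H2-D1 had 1199, 1012 and 1031 CPM in knockout livers, against 1146, 1099.8 and 1246 CPM in control livers (log2 fold change -0.11, SE 0.126). H2-Q7 had 198, 139 and 175 CPM in knockout livers, against 232, 196 and 197 CPM in control livers (log2 fold change -0.28, SE 0.150). These 3 heavy chains overlapped between genotypes, H2-K1 and H2-Q7 each by a single knockout liver. Adjusted p by edgeR was 0.806 for H2-K1, 0.862 for H2-D1 and 0.750 for H2-Q7.

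Of the peptide transport genes, Tap1 had 44.1, 50.9 and 50.5 CPM in knockout livers, against 57.6, 57.5 and 56.9 CPM in control livers, so the groups did not overlap (48.5 ± 3.82 CPM in knockout and 57.4 ± 0.357 CPM in control livers, SD, n = 3 each; log2 fold change -0.24, SE 0.113; adjusted p = 0.741 by edgeR). The 3 control livers were close together and the spread lay among the knockout livers. Tap2 had 86.3, 111 and 92.2 CPM in knockout livers, against 108, 122 and 106 CPM in control livers (log2 fold change -0.22, SE 0.130; adjusted p = 0.761 by edgeR), with knockout 2 inside the control range. Tapbp had 135, 159 and 142 CPM in knockout livers, against 146, 154 and 139 CPM in control livers (log2 fold change -0.011, SE 0.111; adjusted p = 0.990 by edgeR). Its groups lay over each other. Of the immunoproteasome genes, Psmb9 had 80.1, 67.4 and 82.5 CPM in knockout livers, against 95.8, 75.7 and 87.7 CPM in control livers (log2 fold change -0.17, SE 0.135; adjusted p = 0.805 by edgeR). Psmb8 had 93.4, 76.8 and 97.2 CPM in knockout livers, against 79.4, 77.3 and 117 CPM in control livers (log2 fold change -0.039, SE 0.183; adjusted p = 0.974 by edgeR). Control 3 was the highest library for Psmb8, and both groups covered nearly the same range.

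**Figure D3:**
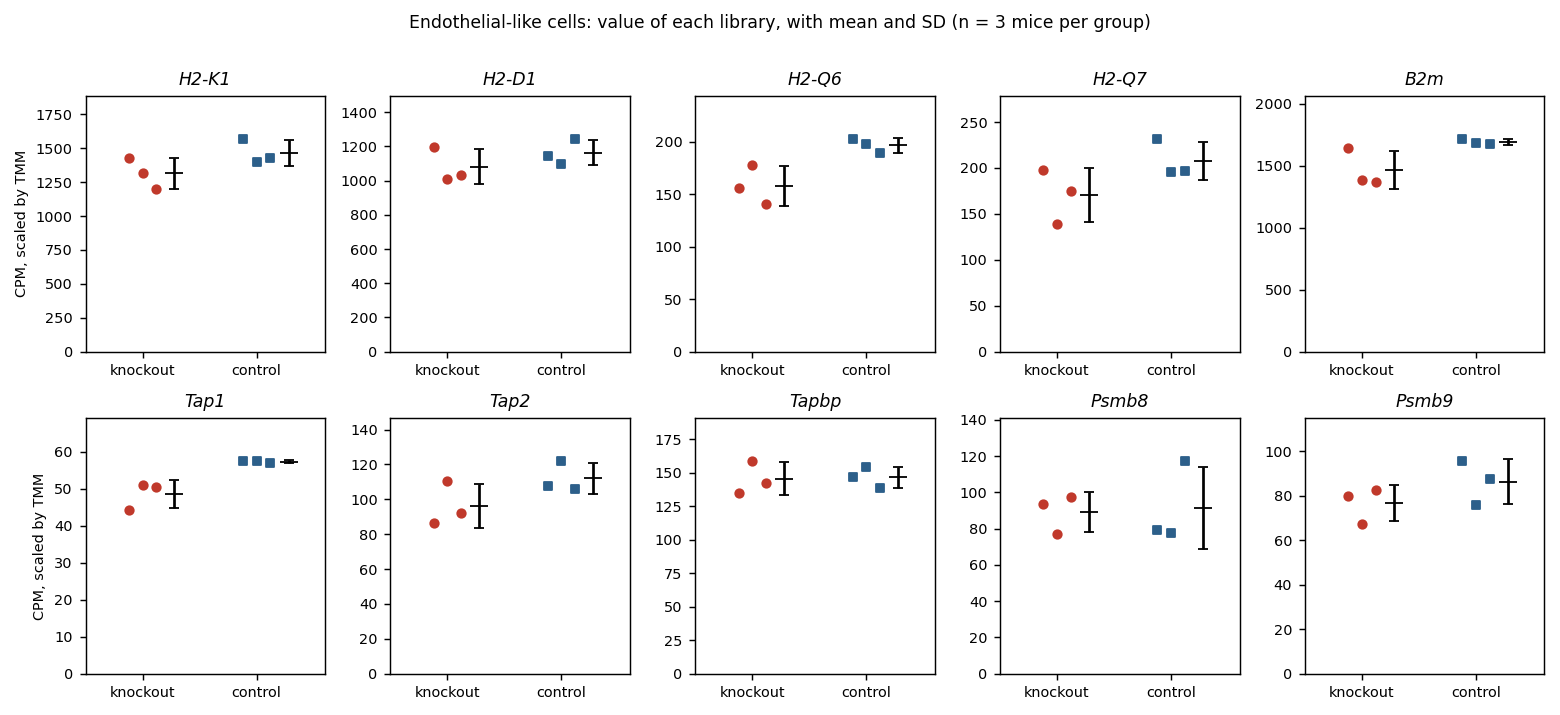
TMM-scaled CPM of each gene in endothelial-like cells, 1 point per library, knockout left of control, with the mean and SD (n = 3 mice per group) beside the points. The groups do not overlap for H2-Q6, B2m and Tap1, and the 3 knockout livers of H2-Q6 sit between 140.5 and 178 CPM, below all control livers.

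Some other measures also lay apart by genotype in the same endothelial-like sums, while the sums of the remaining cell type lists overlapped. Markers of B cells summed to 241 to 560 CPM in knockout livers, against 255 to 486 CPM in control livers. Those of cDC1 summed to 210 to 294 CPM, against 158 to 387 CPM. Plasmacytoid dendritic markers were higher in knockout for 3 of 3 tested, at 15.0 to 26.3 CPM, against 3.70 to 15.2 CPM. Markers of T cells were lower in knockout for 8 of 8 genes tested, with a summed level of 55.4 to 74.0 CPM in knockout livers, against 77.3 to 114 CPM in control livers. Markers of NK/ILC1 cells were lower for 7 of 7, at 39.8 to 71.5 CPM in knockout livers, against 97.5 to 132 CPM in control livers. Stellate/fibroblast markers summed to 23.99 to 38.3 CPM in knockout livers, against 54.2 to 89.5 CPM in control livers, and 2 of the 3 that could be tested were lower. None of these markers was at 0 in all 6 libraries and none was called, while the Kupffer cell markers Clec4f, Marco and Cd5l were at 0 in all 6. A list of genes raised by tissue dissociation was lower for 22 of 23, at 41763 to 58239 CPM in knockout livers, against 59419 to 68914 CPM in control livers. That list was not lower in endothelial-like cells alone. It was lower for 23 of 23 in mesothelial-like, 22 in stellate/fibroblast-like, 21 in neutrophil-like, 21 in cDC1-like, 19 in T-like and 18 in NK/ILC1-like cells. The count was 14 in B-like, 12 in plasma-like and 8 in cholangiocyte-like cells. Endothelial markers were higher for 13 of 14, at 8749.6 to 10129 CPM in knockout livers, against 7496 to 8545 CPM in control livers. The part of the other cell types, of dissociation and of cell purity in the 10 estimates was not tested beyond the following alternatives. Leaving out the cells that held any UMI of the T, B, plasma or NK/ILC1 markers removed 2017 of 2634 cells and left 156, 39 and 103 in knockout livers, against 43, 165 and 111 in control livers. The plasma list held Sdc1, a leading gene of the large-vessel subcluster, so cells without lymphocyte RNA can have been removed too. The removed share is thus not a measure of purity. In the 617 cells left 10 of 10 members were lower, with a median of -0.22, over 7827 genes. Without the subclusters led by genes of other classes (18.5% of the endothelial-like cells), 10 of 10 were lower, with a median of -0.22. Neither alternative called a member.

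Outside endothelium, no member was called in any of the other 9 classes by edgeR, where the share of all genes called was 0.00775% in T-like cells, 0.0197% in NK/ILC1-like cells and 0% in the others, or by DESeq2. Estimates below 0 numbered 4 of 10 in T-like (48.4% of all genes), 7 in B-like (51.3%), 6 in NK/ILC1-like (50.1%), 2 in mesothelial-like (50.3%) and 3 in cholangiocyte-like cells (50.4%). They numbered 6 in stellate/fibroblast-like (49.7%), 6 in neutrophil-like (48.1%), 6 in cDC1-like (50.0%) and 3 in plasma-like cells (49.2%). Of the 10 classes, only endothelial-like cells had all 10 below 0, and there that count was 8 to 10 over the alternatives. On TMM-scaled values, members lower in knockout without overlap were 1 of 10 in T-like (5.64% of all genes), 1 in B-like (5.93%), 2 in NK/ILC1-like (7.02%), 1 in cholangiocyte-like (7.53%), 1 in neutrophil-like (3.91%), 2 in cDC1-like (6.22%) and 1 in plasma-like cells (5.31%). Members higher without overlap were Tap1 in NK/ILC1-like (5.34% of all genes) and cDC1-like cells (6.03%), Psmb9 in neutrophil-like (4.66%) and H2-K1 in plasma-like cells (5.59%). None was higher without overlap in T-like (5.47% of all genes), B-like (4.79%) or cholangiocyte-like cells (8.29%). Mesothelial-like and stellate/fibroblast-like cells had none in either direction, beside 22.9% and 7.69% of all genes, of which 10.1% and 4.05% were lower and 12.8% and 3.64% higher. In each class at most 3 of the 10 members had groups that did not overlap. Without TMM scaling H2-Q6 in B-like, cDC1-like and plasma-like cells, B2m in neutrophil-like and H2-K1 in plasma-like cells overlapped, while H2-K1 in T-like cells (higher) and H2-K1 and B2m in B-like cells (lower) did not. Of all genes without that scaling, 843 of 12901 were higher without overlap in T-like cells and 551 of 11269 lower in B-like cells. An unadjusted p under 0.05 was found for H2-Q6 in B-like (5.99% of all genes), NK/ILC1-like (7.07%) and cholangiocyte-like cells (9.34%), and for H2-Q6 and H2-Q7 in cDC1-like cells (7.15%). It was found for 0 members in T-like (6.11% of all genes), mesothelial-like (17.0%), stellate/fibroblast-like (1.97%), neutrophil-like (4.48%) and plasma-like cells (5.56%). The most was 2 of 10 members, in cDC1-like cells. DESeq2 called 0 of 10 members in each class, beside 0.225% of all genes in T-like, 0.124% in B-like, 0.266% in NK/ILC1-like, 2.68% in mesothelial-like, 0.248% in cholangiocyte-like, 0.048% in neutrophil-like, 0.141% in cDC1-like and 0.0% in plasma-like and stellate/fibroblast-like cells.

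H2-Q6 was the 1 member with a lower estimate in all 10 classes, from -0.85 to -0.12 on the log2 scale, with groups that did not overlap in 7 and an unadjusted p under 0.05 in 5. On CPM without TMM scaling the groups did not overlap in 4, T-like, NK/ILC1-like, endothelial-like and cholangiocyte-like cells. Of all genes, 507 of 12901, 463 of 10155, 522 of 12212 and 1241 of 13324 were so placed, in the same order. Its smallest adjusted p over the classes was 0.327 by edgeR, so it was called in none, and the 10 classes come from the same 6 mice and are not separate replications. In NK/ILC1-like cells, its highest class, it had 632, 648 and 634 CPM in knockout livers, against 786, 720.0 and 762 CPM in control livers (log2 fold change -0.25, SE 0.107; adjusted p = 0.675 by edgeR). In B-like cells it had 313, 357 and 339 CPM in knockout livers, against 371, 408 and 426 CPM in control livers (log2 fold change -0.26, SE 0.102; adjusted p = 0.773 by edgeR). In T-like cells it had 492, 499 and 539 CPM in knockout livers, against 564, 549 and 546 CPM in control livers (log2 fold change -0.12, SE 0.0939; adjusted p = 0.912 by edgeR). In all 3 lymphocyte classes, on these TMM-scaled values, every knockout liver was below every control liver, by less in T-like cells than in the others, a difference between classes that was not tested. In cholangiocyte-like cells it had 177, 137 and 156 CPM in knockout livers, against 182, 207 and 187 CPM in control livers (log2 fold change -0.30, SE 0.113; adjusted p = 0.493 by edgeR), and in plasma-like cells 162, 165 and 162 CPM in knockout livers, against 211, 170.3 and 181 CPM in control livers (log2 fold change -0.21, SE 0.140). In mesothelial-like cells it had 101.3, 109.5 and 114 CPM in knockout livers, against 107, 177 and 130.1 CPM in control livers, with overlap through control 1. The widest differences, in stellate/fibroblast-like (-0.85) and neutrophil-like cells (-0.62), had the largest SEs (0.443 and 0.469), and the groups overlapped. Without the cluster led by smooth muscle genes the stellate/fibroblast-like value was -0.89 (SE 0.428), and 5 of 10 members were lower there in place of 6. The related H2-Q7 had lower estimates in 6 classes and higher ones in 4.

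In cDC1-like cells, which carry antigen to CD8 T cells, both Qa-2 genes were lower in every knockout liver on TMM-scaled values. H2-Q7 had 86.2, 66.2 and 86.8 CPM in knockout livers, against 99.8, 124 and 109.6 CPM in control livers (79.7 ± 11.7 CPM in knockout and 111 ± 12.3 CPM in control livers, SD, n = 3 each; log2 fold change -0.47, SE 0.162; unadjusted p = 0.00925, adjusted p = 0.564 by edgeR). H2-Q6 had 83.0, 111 and 106 CPM in knockout livers, against 119, 152.9 and 135 CPM in control livers (log2 fold change -0.44, SE 0.161; unadjusted p = 0.0134, adjusted p = 0.582 by edgeR). Tap1 stood the other way there, with 169, 179 and 177 CPM in knockout livers, against 162.9, 139 and 156 CPM in control livers (log2 fold change 0.20, SE 0.140; adjusted p = 0.814 by edgeR). None of the 3 genes passed the test.

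B2m had lower estimates in 9 of 10 classes, from -0.32 to 0.10, with plasma-like cells as the exception. In NK/ILC1-like cells it had 2273, 1851 and 2265 CPM in knockout livers, against 2518, 2355 and 2541 CPM in control livers (log2 fold change -0.21, SE 0.135; adjusted p = 0.781 by edgeR), and in neutrophil-like cells 661, 729.8 and 687 CPM in knockout livers, against 738, 943 and 921 CPM in control livers (log2 fold change -0.32, SE 0.257). The groups did not overlap in either class on these TMM-scaled values. H2-K1 estimates ran from -0.22 to 0.15 and were lower in 6 of 10 classes, and those of H2-D1 from -0.24 to 0.16, lower in 7. Tap2 had higher estimates in 9 of 10 classes, with T-like cells at 98.5, 99.97 and 76.0 CPM in knockout livers, against 70.3, 78.0 and 86.1 CPM in control livers (log2 fold change 0.23, SE 0.129), and endothelial-like cells were the 1 class with a lower one. Tap1 was higher in 6 and Tapbp in 4 of 10, within -0.23 to 0.10 for Tapbp.

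**Figure D4:**
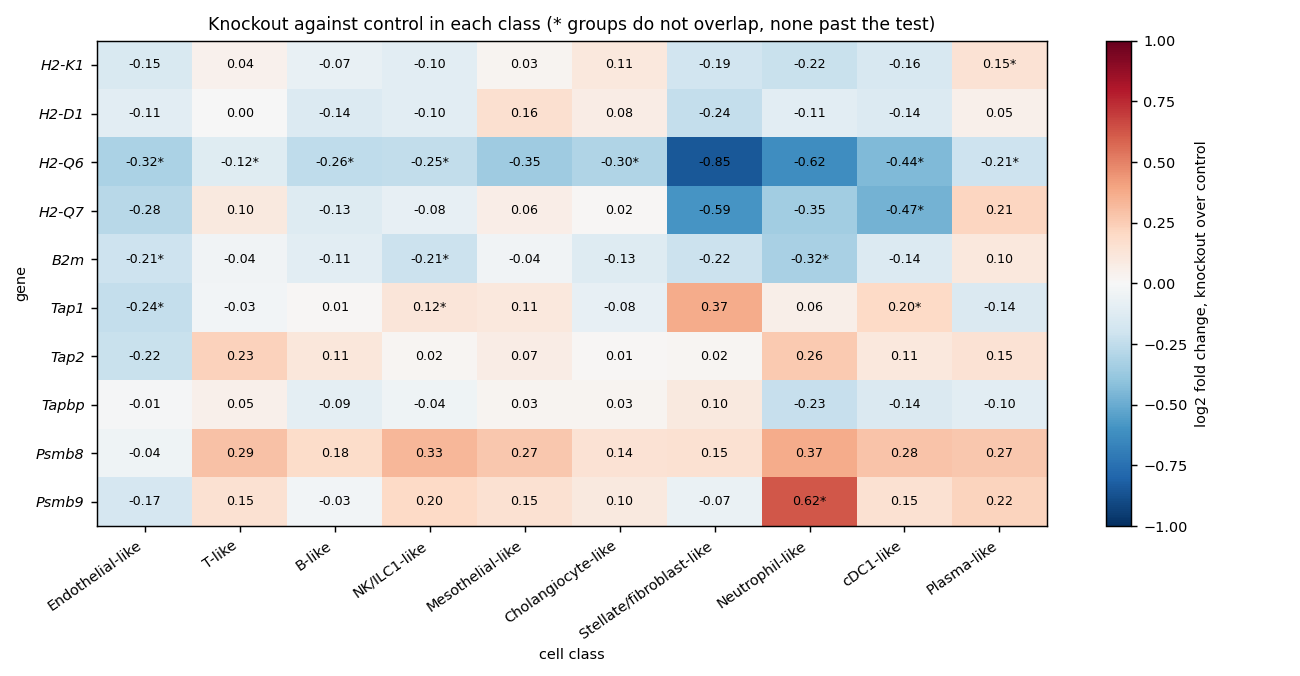
Log2 fold change, knockout over control, of each gene (rows) in each tested class (columns), with an asterisk where the TMM-scaled values of the 3 knockout and 3 control livers do not overlap. H2-Q6 is below 0 in all 10 classes, and no value passed the test.

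Psmb8 had higher estimates in 9 of 10 classes, up to 0.37, and the groups overlapped in all 10. In T-like cells it had 309, 145 and 212 CPM in knockout livers, against 162.8, 126 and 257 CPM in control livers, and in cDC1-like cells 678, 353 and 536 CPM in knockout livers, against 399, 322 and 562 CPM in control livers. In both, knockout 2 lay among the low libraries and control 3 among the high ones, so the groups overlapped. Averaged over the 10 classes, the deviation from the class mean on the log2 scale was 0.51, -0.29 and 0.15 in knockout livers, against -0.27, -0.48 and 0.39 in control livers. Control 3 was above the class mean in 10 of 10 classes and knockout 1 and knockout 3 in 9 each, while control 1 and control 2 were above it in 0 of 10. Psmb9 kept a similar pattern, at 0.30, -0.24 and 0.12 in knockout livers, against -0.12, -0.18 and 0.11 in control livers. In neutrophil-like cells Psmb9 had 104, 59.1 and 60.5 CPM in knockout livers, against 54.5, 46.1 and 48.2 CPM in control livers (log2 fold change 0.62, SE 0.298; adjusted p = 0.922 by edgeR). H2-D1 also went with libraries, above the class mean in 10 of 10 classes in knockout 1 and in control 3, and in 1 of 10 in knockout 2 and in control 2. Each mouse is 1 library, so a difference between mice and one between libraries cannot be told apart.

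**Figure D5:**
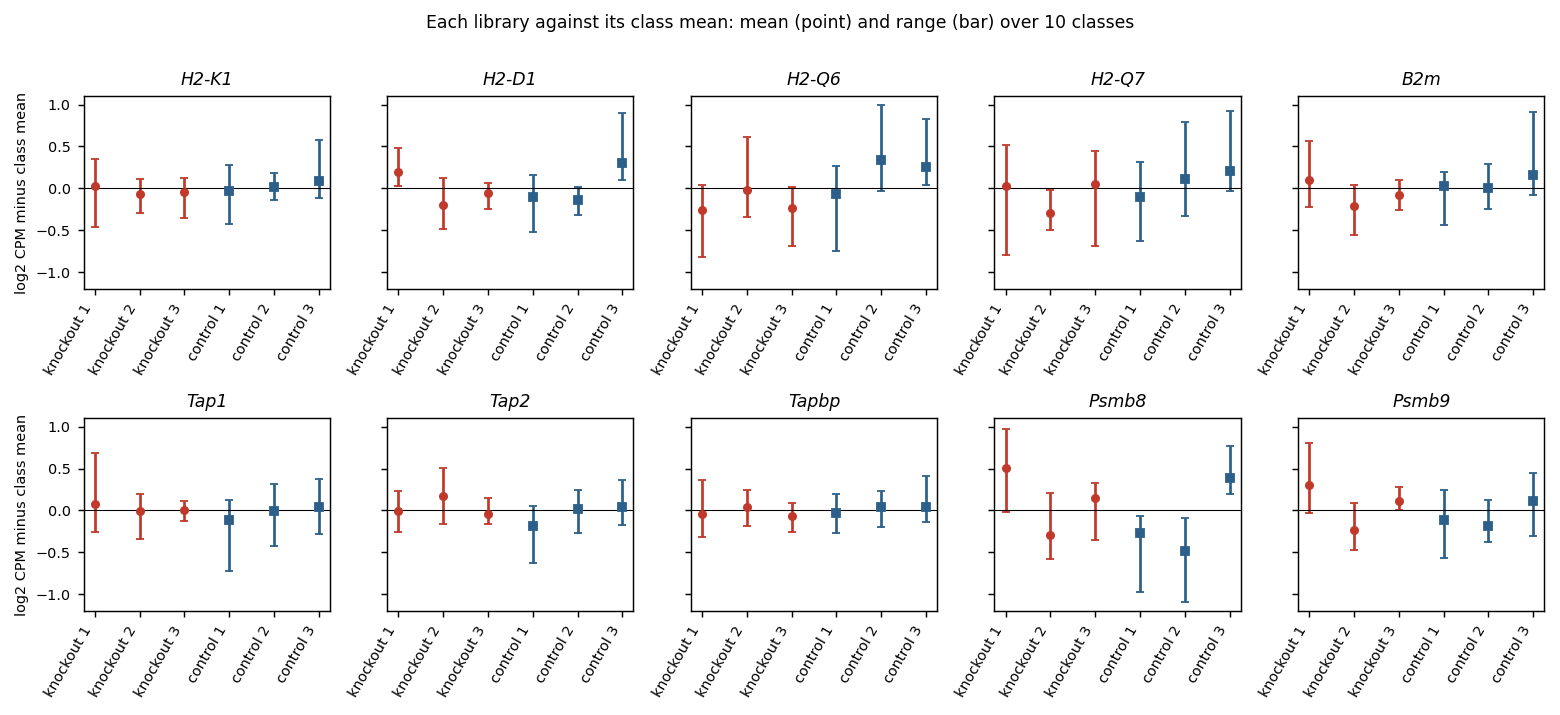
Deviation of each library from its class mean (log2 CPM), as the mean over 10 classes (point) and the range over them (bar), with knockout libraries left of control libraries. For Psmb8, control 3 and knockout 1 lie above 0 and control 1 and control 2 below it on average. H2-Q6 is below 0 on average in all 3 knockout livers (-0.26, -0.024 and -0.24) and in control 1 (-0.072).

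Whether the genotype difference in endothelial-like cells differed from that in another class was tested directly, with the mouse as a block, against each of the other 9 classes. edgeR called 0 of 10 members in every one of the 9 tests, beside 0% to 0.0164% of all genes, and the smallest adjusted p of a member was 0.814. An unadjusted p under 0.05 was found for 2 of 10 members against T-like (5.41% of all genes), 1 against B-like (5.26%), 1 against NK/ILC1-like (5.69%), 1 against neutrophil-like (4.33%), 1 against cDC1-like (4.48%) and 3 against plasma-like cells (4.83%). It was found for 0 members against mesothelial-like (6.03% of all genes), cholangiocyte-like (5.68%) and stellate/fibroblast-like cells (3.0%). The count was thus largest against plasma-like cells. For Tap2 the endothelial-like log2 fold change minus that of T-like cells was -0.45 (SE 0.171, adjusted p = 0.836 by edgeR). For Tap1 minus cDC1-like cells it was -0.46 (SE 0.168, adjusted p = 0.977), and for H2-Q6 minus NK/ILC1-like cells -0.10 (SE 0.154, adjusted p = 0.979), both by edgeR. The estimates for lower members in endothelium are therefore not shown to be particular to it.

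Summed over all cells of a library, 0 of 10 members were called by edgeR or by DESeq2 (0.0% and 0.109% of 18360 genes), 0 had an unadjusted p under 0.05 (2.63% of all genes) and 0 were without overlap, beside 6.99% of all genes. H2-Q6 had 249.1, 318 and 245 CPM in knockout livers, against 409, 317 and 259 CPM in control livers (log2 fold change -0.28, SE 0.207), and H2-K1 had 1538, 1535 and 1553 CPM in knockout livers, against 1789, 1573 and 1472 CPM in control livers (log2 fold change -0.064, SE 0.148). Control 1, with the Gzmk cluster and the most T-like cells, was the highest library for both. In such sums a change in the mix of cells and a change of level per cell cannot be told apart.

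The rest of the pathway was read from lists in the endothelial-like class, where edgeR called 0 genes of every list. Of 23 other heavy chain genes 9 could be tested, 4 lower and 5 higher in knockout, with a median log2 fold change of 0.17. Hfe, a class I-like regulator of iron uptake, had 36.0, 33.1 and 48.3 CPM in knockout livers, against 26.7, 27.5 and 34.7 CPM in control livers (log2 fold change 0.40, SE 0.182; adjusted p = 0.734 by edgeR), and Mr1, which shows vitamin B metabolites to MAIT cells, had 16.1, 14.9 and 16.1 CPM in knockout livers, against 15.2, 12.3 and 9.82 CPM in control livers (log2 fold change 0.37, SE 0.198). Of 10 genes of peptide trimming and loading, 7 were lower (median -0.10). Tpp2, a cytosolic peptidase, had 197, 169.6 and 199.6 CPM in knockout livers, against 243, 226 and 228 CPM in control livers (log2 fold change -0.30, SE 0.111; adjusted p = 0.734 by edgeR), without overlap, and Calr, the chaperone calreticulin, had 239, 245 and 304 CPM in knockout livers, against 284, 289 and 339.5 CPM in control livers (log2 fold change -0.21, SE 0.137). Of 6 partners and regulators of the immunoproteasome 5 were lower (median -0.059), and all 3 constitutive catalytic subunits were higher (median 0.091). Psme1, of the proteasome activator PA28, had 132, 132 and 136 CPM in knockout livers, against 132, 142 and 159.9 CPM in control livers (log2 fold change -0.12, SE 0.111), and Psma7, a structural proteasome subunit, had 154, 125 and 156 CPM in knockout livers, against 132, 129 and 136 CPM in control livers (log2 fold change 0.13, SE 0.120). Psmb6 had a log2 fold change of 0.11 (SE 0.133) and Psmb5 one of 0.091 (SE 0.142).

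Of 21 transactivators, interferon receptors and their signalling genes 9 were lower and 12 higher, with a median of 0.017 beside 0.0089 over all genes. Ifng, the interferon-γ gene of T and NK cells, had 10.7, 11.3 and 12.4 CPM in knockout livers, against 14.4, 14.8 and 22.7 CPM in control livers in the endothelial-like sums (log2 fold change -0.61, SE 0.220; adjusted p = 0.734 by edgeR), placed like the T and NK cell markers above. Rfx5, a subunit of the factor that binds MHC promoters, had 10.1, 11.3 and 9.37 CPM in knockout livers, against 9.05, 6.25 and 6.71 CPM in control livers (log2 fold change 0.51, SE 0.227; adjusted p = 0.734 by edgeR). The groups did not overlap for either gene. Of 12 lymphocyte receptors for class I, 4 could be tested and all 4 were lower, among them Cd8b1 (0.857, 0.649 and 3.88 CPM in knockout livers, against 3.29, 3.34 and 5.24 CPM in control livers) and Klrc1 (1.71, 3.57 and 0.484 CPM in knockout livers, against 2.06, 2.50 and 6.05 CPM in control livers), receptors of T and NK cells. Of the dissociation genes, the smallest p were those of the heat shock genes Hspa1b (2702, 3569.7 and 3286 CPM in knockout livers, against 4562, 7973 and 6900.0 CPM in control livers; log2 fold change -1.02, SE 0.221; adjusted p = 0.734 by edgeR) and Hspe1 (log2 fold change -0.61, SE 0.148; adjusted p = 0.734 by edgeR). In the other 9 classes no gene of the 7 lists was called either.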

How the data were processed

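Droplet 3′ single-cell RNA-seq of 6 mouse livers was analysed from the deposited matrices of raw UMI counts, made by the authors with Cell Ranger 7.1.0 on mm10, and with Seurat 4.1.1 named too, per the submitters' processing notes. The annotation release is not given in the sources used here. Barcodes were retained from 300 genes upward where mitochondrial UMIs made up 20% or less. Scrublet's own threshold worked in 4 of 6 libraries, so a common score threshold of 0.2667 was used, and a cluster in which doublets made up more than 0.5 of the cells took no name. Clustering used 3000 variable genes, 40 components and Leiden resolution 1 (scanpy 1.11.5, leidenalg 0.10.2, Python 3.11.15). A cluster took a name when its marker score reached 0.5, led the next by 0.3 and rested on 3 or more detected markers, limits set after the scores were seen. UMIs were summed per library and class. edgeR 4.0.16 (R 4.3.3; TMM, default expression filter, robust quasi-likelihood F-test, Benjamini-Hochberg over all genes, threshold 0.05) was the test, and DESeq2 1.42.0 an alternative. The edgeR step was tested on simulated data in which changed genes had log2 fold changes of 1 or 2 in size. All member estimates of the main fits were smaller, and the power to call differences of their size was not tested. The class levels are CPM without TMM scaling, and values in comparisons of genotype are TMM-scaled. Total counts per library ran from 55017937 to 73867890 UMIs. Genes named are the 10 members, the 2 of smallest p per pathway list in endothelial-like cells, and the 10 most alike over classes, of which 1 is not reported here. Members and lists were chosen with earlier results of these data known. The labels number biological replicates but do not say that a number is shared, and the numbers do not pair the mice. Coordinates use GENCODE M21 on GRCm38, in which 31107 of 31253 identifiers were found. The p-values of the genotype comparisons set the difference between groups against the spread between mice. With 1 library per mouse that spread includes the one between libraries.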

Additional observations from a re-analysis of the deposited data

How the results depend on the processing

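No member was called in any of 1530 values recomputed under the alternatives. Under the alternatives 1 estimate reversed: Psmb9 in NK/ILC1-like cells was -0.012 without knockout 1, in a range of -0.012 to 0.40 over the libraries left out. Another 78 estimates with a library left out, and 19 under other alternatives, changed sign by less than their SE. The count of all genes called moved more. DESeq2 called 29 in T-like, 14 in B-like, 27 in NK/ILC1-like, 361 in mesothelial-like, 16 in endothelial-like, 33 in cholangiocyte-like, 3 in neutrophil-like and 13 in cDC1-like cells, and 20 in whole libraries, against 1 in T-like cells, 2 in NK/ILC1-like cells and 0 in the others by edgeR. With no filter on low counts it was 19 in T-like, 87 in B-like, 130 in NK/ILC1-like, 205 in mesothelial-like, 4 in endothelial-like, 16 in cholangiocyte-like, 21 in neutrophil-like, 77 in cDC1-like and 59 in plasma-like cells. The replicate block gave 31 in B-like, 18 in NK/ILC1-like, 2 in mesothelial-like, 12 in cDC1-like and 5 in plasma-like cells, no other count of called genes or members changed under it, and the numbers do not pair the samples (between 0 and 4 of 6 libraries lay closest to their own number). With 1 library left out the counts ran from 0 to 1 in T-like, 0 to 2 in B-like, 0 to 9 in NK/ILC1-like, 0 to 80 in mesothelial-like (the highest without control 1), 0 to 82 in endothelial-like (without control 3), 0 to 5 in cholangiocyte-like, 0 to 1 in neutrophil-like, 0 to 7 in cDC1-like and 0 to 1 in plasma-like cells, and 0 to 1 in whole libraries. Keeping doublets gave 1 in B-like, 0 in NK/ILC1-like and 4 in cDC1-like cells. The stricter cell filter gave 0 in NK/ILC1-like cells, and class I genes among the variable genes or Leiden resolution 2 gave 0 in T-like cells. The Tap1 fold of cDC1-like over stellate/fibroblast-like cells was 11.4 as a mean over cells, against 7.68 from sums. Without the cluster led by smooth muscle genes, an alternative chosen after seeing the data as were CPM without TMM scaling and endothelial-like cells without subclusters led by other classes, the Psmb9 fold of cDC1-like over stellate/fibroblast-like cells was 13.5, against 17.7 for the whole class. The cause of these moves was not tested. Precision was lowest in neutrophil-like and stellate/fibroblast-like cells, with SEs of members up to 0.469 and 0.456.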

Other observations

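Unnamed clusters held class I values that enter no comparison. A cluster of 27 cells, 26 of them from knockout 2, had H2-K1 at 9575 CPM pooled over its cells, above every class, with Ighg1 as its leading gene and a median UMI count of 0.454 times that of its libraries. Its B2m was 1620.3 CPM and its Psmb8 114.6 CPM.

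The Gzmk and Cd8b1 cluster of 1048 cells, 753 of them from control 1, had pooled levels of 2420.2 CPM for H2-K1, 2249 CPM for B2m and 299.9 CPM for Psmb8. A cluster of 265 cells led by the hepatocyte genes Ahsg and Serpina1c had 1819 CPM for H2-K1, 1229.5 CPM for B2m and 67.0 CPM for Psmb8.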
